A study of Mus musculus with 2 samples.

Results

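Ribosomal protein genes encode the protein subunits of the cytosolic ribosome. They were taken as all rows of both count tables with a symbol that starts with Rpl or Rps and a digit, plus Rplp0, Rplp1, Rplp2 and Rpsa, without S6 kinase genes and without rows whose symbol marks a pseudogene. The rule found 87 of the 25507 gene symbols, 53 of the large subunit (Rpl) and 34 of the small subunit (Rps). It also takes in paralogs such as Rpl36al, Rpl22l1 and Rps27l, and Rps19bp1, which encodes a binding partner of a ribosomal protein and not a subunit. Rpl6l, a processed pseudogene in the GENCODE M21 annotation whose symbol does not say so, was kept and is among the genes tested below. The data are 2 single-cell RNA sequencing libraries of wild-type mouse pancreas at embryonic stage E14.5, whose cells the labels call pancreatic islet. Endocrine cells had been enriched by flow sorting for low and high Ngn3eGFP, a green fluorescent reporter of Neurog3, and the tables do not say which gate a cell came from. All groups described here share the wild-type genotype and no treatment, and whether they differ in gate cannot be told. The labels do not say whether the 2 libraries came from separate embryos. The p-values rest only on how far differences between groups varied from library to library, in a joint fit of all 8 groups. That spread may be technical.

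Ribosomal proteins are made in equal numbers for a particle of a large and a small subunit, and their mRNAs are among the most abundant of a growing cell. Most of these mRNAs begin with a run of pyrimidines, the 5' terminal oligopyrimidine tract, through which the growth regulator mTORC1 controls their translation and stability. Myc proteins are known to raise the transcription of many ribosomal protein and ribosome assembly genes. In the fetal pancreas, multipotent tip cells give acinar cells, and trunk cells give duct cells and, after a pulse of Neurog3, hormone cells that leave the cell cycle.

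The first bases of the genes on which the results below turn are shown here because the start of the transcript is where the shared promoter and translational elements of this family lie. Sequences are from RefSeq on GRCm38.p6, 5' to 3' on the gene's strand, with the bases before the annotated start in lower case and the first 15 bases from it in capitals. Rpl39, Rpl12 and Rpl36a had the lowest adjusted p-values in the comparison of Chgb with Neurog3 cells, Rpl36al departed from the family there, Rps2 and Rps27l had the lowest adjusted p-values in Cpa1 against Spp1 cells, and Rps18 and Rpl15 are from the comparison of Csf1r with Spp1 cells.
Rpl39: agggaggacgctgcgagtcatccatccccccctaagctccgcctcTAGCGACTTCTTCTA
Rpl12: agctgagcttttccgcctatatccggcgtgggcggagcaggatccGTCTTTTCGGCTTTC
Rpl36a: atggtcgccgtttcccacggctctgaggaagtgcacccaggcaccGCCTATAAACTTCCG
Rpl36al: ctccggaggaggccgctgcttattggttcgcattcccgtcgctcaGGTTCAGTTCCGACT
Rps2: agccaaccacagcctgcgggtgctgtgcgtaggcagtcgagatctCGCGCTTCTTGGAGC
Rps27l: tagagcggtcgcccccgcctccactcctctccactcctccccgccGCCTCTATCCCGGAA
Rps18: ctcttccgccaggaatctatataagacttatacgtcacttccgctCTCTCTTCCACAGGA
Rpl15: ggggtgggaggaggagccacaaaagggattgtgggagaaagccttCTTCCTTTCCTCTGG
The window of Rpl39 is chrX:37085208-37085267 (minus strand), that of Rpl12 chr2:32961667-32961726 (plus strand), that of Rpl36a chrX:134585609-134585668 (plus strand) and that of Rpl36al chr12:69184053-69184112 (minus strand). The window of Rps2 is chr17:24720018-24720077 (plus strand), that of Rps27l chr9:66946041-66946100 (plus strand), that of Rps18 chr17:33955651-33955710 (minus strand) and that of Rpl15 chr14:18270972-18271031 (minus strand). The starts of Rpl15 and Rps18 as annotated open with a run of pyrimidines, while those of all the other genes shown hold a purine among the first bases. A RefSeq promoter entry was found for 66 of the 87 genes. The letters CTTTCC on the gene's strand within 50 bases of the start were in 19 of these 66 promoters (28.8%), against 4.67% of all 27025 promoters. The letters CCGGAAG, the core to which Ets factors bind, were found on either strand of the window from 250 bases before to 50 bases after the start in 25 of 66 (37.9%), against 9.12% of all promoters. The E-box CACGTG, which Myc proteins can bind, was in 5 of 66 (7.58%) against 7.24% in the same window on either strand, and TATAAA on the gene's strand within 50 bases before the start was in 1 of 66 (1.52%) against 2.88%. None of these motifs contains another on either strand, and a match describes letters only.

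Library 1 held 535 cell barcodes with 1910588 UMIs (unique molecular identifiers, 1 for each captured RNA molecule), and library 2 held 1100 with 3425983. The libraries shared 3 barcodes. After filters and removal of called doublets, 515 and 1070 cells remained. Of these, 379 and 779 fell into 8 groups by raw UMIs of marker genes, with a cell placed by the marker that reached its minimum while competing markers stayed under theirs. The minimum was 5 UMIs of Spp1 (trunk epithelium), 3 of Neurog3, 5 of Chgb (a granule protein of endocrine cells), 5 of Gcg (glucagon), 20 of Ins1 and Ins2 together (insulin), 5 of Cpa1 (tip and acinar cells) or 2 of Csf1r (macrophages), and cells with both Neurog3 and Chgb made a group of their own. The Spp1, Neurog3, Gcg, Ins, Cpa1 and Csf1r groups each had the highest summed level of their own list of other markers, the Chgb group did not, and no list was set for cells with both Neurog3 and Chgb. The endocrine precursor list stood at 4693 and 5769 CPM (counts scaled to an equal library size) in Chgb cells, beside 4653 and 6068 CPM in Gcg cells and 6034 and 4509 CPM in cells with both Neurog3 and Chgb, and at 572 and 1046 CPM in Neurog3 cells. The acinar list stood at 8464 and 14512 CPM in Cpa1 cells against 52.8 to 382 in the other groups, and the macrophage list at 8189 and 9879 CPM in Csf1r cells against 62.8 to 261 elsewhere. The Neurog3 and Chgb group had 8 and 13 cells, the Cpa1 group 9 and 84 and the Csf1r group 7 and 35, against 29 to 189 in the rest. The delta cell list (Sst, Hhex, Rgs2) stood at 298 CPM in Chgb cells of library 1 and 2199 CPM in those of library 2. Its part in the results was not tested. All CPM of marker lists here are on plain UMI totals, without the scaling between sums (TMM) applied to single genes below.

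Ribosomal protein genes made up the largest part of all UMIs in Cpa1 cells and the smallest in Ins cells. The share was 7.43% in library 1 and 8.50% in library 2 in Spp1 cells, and 7.85% and 8.41% in Neurog3 cells. It was 5.97% and 6.93% in cells with both Neurog3 and Chgb, between the values of Neurog3 and of Chgb cells in each library. In Chgb cells it was 5.20% and 5.60%, in Gcg cells 5.03% and 5.37% and in Ins cells 4.71% and 4.92%. All 3 endocrine groups lay below the Spp1 and Neurog3 groups in both libraries, and their ranges did not overlap with those groups.
The share reached 11.3% and 11.6% in Cpa1 cells, above every other group, and was 7.04% and 6.57% in Csf1r cells. As means over the libraries this is 8.13% ± 0.394 (SD, n = 2) in Neurog3, 5.40% ± 0.282 in Chgb, 4.82% ± 0.146 in Ins and 11.4% ± 0.212 in Cpa1 cells. The order from Cpa1 down ran Neurog3, Spp1, Csf1r, Neurog3 with Chgb, Chgb, Gcg and Ins. The order of Neurog3 and Spp1 cells differed between the libraries, and so did that of Csf1r cells and cells with both Neurog3 and Chgb. The ranges of Gcg and Chgb cells overlapped, while within each library Gcg cells lay below Chgb cells, at 0.966 and 0.959 of their share. The shares were not tested. Exact binomial 95% intervals, which cover counting error only, were narrow in the large groups (7.77% to 7.94% in Neurog3 and 5.12% to 5.29% in Chgb cells of library 1).

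**Figure D1:**
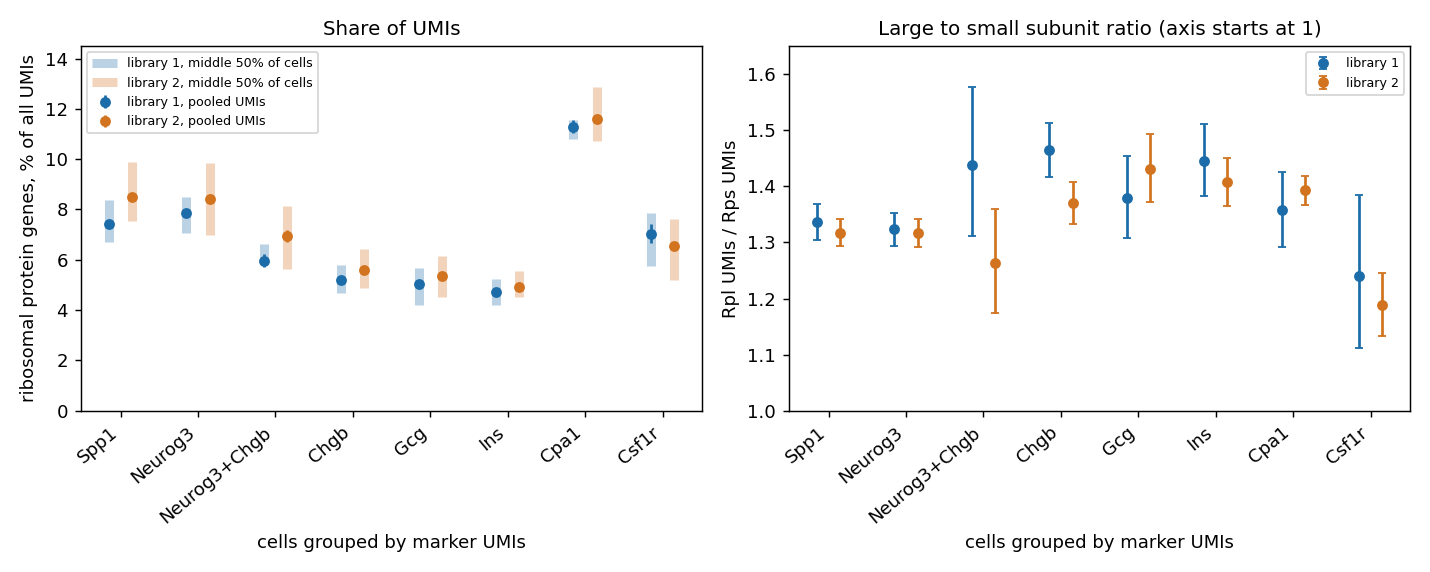
Left, the share of all UMIs that fell on ribosomal protein genes (%, vertical axis) in each marker group (horizontal axis); points are pooled UMIs of a library with exact 95% counting intervals, and pale bars span the middle 50% of cells. Right, UMIs of Rpl genes divided by UMIs of Rps genes with their counting intervals, on an axis that starts at 1. The shares of Chgb, Gcg and Ins cells lie between 4.71% and 5.60%, under those of Spp1 and Neurog3 cells, and Cpa1 cells lie at 11.3% and 11.6%; Csf1r cells have the lowest subunit ratios.

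Gaps between the Neurog3, Chgb and Cpa1 groups were also seen in single cells. The median cell of the Neurog3 group had a share of 7.78% in library 1 and 8.68% in library 2, and the median cell of the Chgb group 5.23% and 5.66%. The upper quartile of Chgb cells, 5.80% and 6.43%, lay under the lower quartile of Neurog3 cells, 7.06% and 6.998%. The lower quartile of Cpa1 cells, 10.8% and 10.7%, lay above the upper quartile of every other group. Median depth was 2940 and 2758 UMIs a cell in the Neurog3 group, 3363 and 3100 in the Chgb group, and 6209 and 4387 in the Cpa1 group. When mitochondrial UMIs and the 20 most abundant other genes were left out of the total, the shares were 8.61% and 9.30% in Neurog3, 5.66% and 6.17% in Chgb and 12.6% and 13.0% in Cpa1 cells, with the groups in the same order.

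Cycling was counted from 10 cell cycle genes, with 3 or more of their UMIs marking a cycling cell. Such cells made up 77.8% and 73.8% of the Cpa1 group, 30.0% and 36.5% of the Spp1 group, 22.6% and 13.1% of the Neurog3 group and 13.4% and 5% of the Chgb group. Within the Spp1 group, cycling cells had the lower ribosomal protein share, 6.49% against 7.98% in library 1 and 7.36% against 9.26% in library 2. Those cycling cells were also deeper, at medians of 4498 against 3779 and 3048 against 2605 UMIs a cell. The part of depth in this gap was not tested. In the Neurog3 group the libraries differed, with 7.92% in cycling and 7.83% in other cells of library 1, and 7.06% and 8.66% in library 2. Cpa1 cells of library 2 that were not cycling had 12.04%, at a median of 2200 UMIs a cell, above the 9.26% of non-cycling Spp1 cells of that library. In Chgb cells cycling and other cells were close, at 5.40% and 5.16% in library 1 and 5.32% and 5.62% in library 2, over 11 and 6 cycling cells.

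Across cells with under 5 Chgb UMIs and no hormone, Cpa1 or Csf1r group, the share was higher where more Neurog3 UMIs were counted. It was 7.01% in library 1 and 7.20% in library 2 at 0 Neurog3 UMIs, 7.17% and 7.97% at 3 to 5, and 8.33% and 8.81% at 11 or more. Only the step from 0 to 1 or 2 UMIs in library 1, from 7.01% to 6.96%, went the other way. Median depth was higher in the upper bins too, from 2644 and 2422 UMIs a cell at 3 to 5 to 3707 and 3202 at 11 or more. Its part in the slope was not tested. The bins at 0 and at 1 or 2 Neurog3 UMIs took in cells with 1 to 4 Chgb UMIs, whose share was 5.58% and 5.91%. Cells with 0 Chgb and under 3 Neurog3 UMIs had 7.37% and 7.70%. That is above the 7.17% at 3 to 5 Neurog3 UMIs in library 1 and below the 7.97% in library 2. The part of Chgb in the slope was not tested.
Across cells with under 3 Neurog3 UMIs, the share was lower from the first Chgb UMIs on. It was 7.37% and 7.70% at 0 Chgb UMIs, already 5.58% and 5.91% at 1 to 4, and 5.40% and 5.68% at 20 or more. From 5 UMIs up, the share rose from bin to bin in library 1, at 4.79%, 5.20% and 5.40%. In library 2 these bins spanned 5.38% to 5.68%, with no steady order. The bin at 0 holds trunk cells together with cells that reached no marker's minimum.

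**Figure D2:**
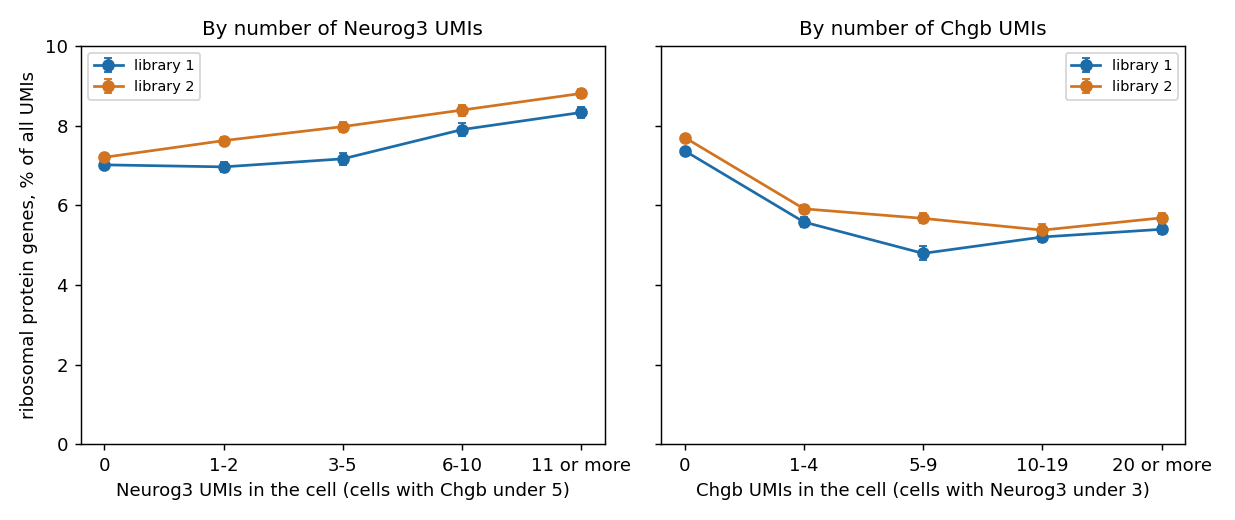
Share of UMIs on ribosomal protein genes (%, vertical axis) in cells binned by their number of Neurog3 UMIs (left, cells with Chgb under 5) and Chgb UMIs (right, cells with Neurog3 under 3), 1 line for each library with exact 95% counting intervals. The share is highest at 11 or more Neurog3 UMIs (8.33% and 8.81%) and is lower at 1 to 4 than at 0 Chgb UMIs (5.58% against 7.37%, and 5.91% against 7.70%).

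Large-subunit genes gave more UMIs than small-subunit genes in every group, which has 53 against 34 symbols. The ratio of Rpl to Rps UMIs was 1.34 and 1.32 in Spp1 cells and 1.32 and 1.32 in Neurog3 cells. It was higher in Chgb cells in each library, at 1.46 (interval 1.42 to 1.51) and 1.37 (1.33 to 1.41), and stood at 1.38 and 1.43 in Gcg, 1.44 and 1.41 in Ins and 1.36 and 1.39 in Cpa1 cells. The gap between the Chgb and Neurog3 groups was 1.11-fold in library 1 and 1.04-fold in library 2. Csf1r cells had the lowest ratios, 1.24 in library 1, from 1333 ribosomal protein UMIs, and 1.19 in library 2, where the interval of 1.13 to 1.24 lay below those of the other groups except cells with both Neurog3 and Chgb. The ratios were not tested.

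Single genes were tested on UMIs summed over the cells of each library and group, with edgeR's quasi-likelihood test on 9871 genes, library as a block, and Benjamini-Hochberg adjustment over all genes of a comparison. A gene is called here at an adjusted p under 0.05. Of the 87 genes, 80 passed the filter on low counts. The 7 that did not were Rps19bp1, Rpl10l, Rpl35, Rpl39l, Rpl3l and Rps27rt, with 83 to 4 UMIs over all groups, and Rps12, with 0. The 5 with the most UMIs were Rpl41 (8708 over all groups), Rpl27a (7684), Rps16 (6822), Rpl23 (6814) and Rps23 (6663); UMIs tag the 3' end of a molecule and are not scaled by length.

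Between trunk and Neurog3 cells no ribosomal protein gene was called. Of the 80 genes 0 were called in either direction by edgeR, and 0 had an unadjusted p under 0.05, while 3.05% of all genes tested were called higher and 2.43% lower in Neurog3 cells. DESeq2 also called 0. The median log2 fold change of the family was 0.05, against -0.02 over all genes tested, and the middle 50% of members lay between -0.03 and 0.14. Rpl7l1, a paralog of Rpl7, stood farthest below the rest at -0.53 ± 0.41 (SE), which did not pass. In the same comparison 3 of 10 tested genes of the Myc family and its partners were called, all higher in Neurog3 cells. DESeq2 called 2, also higher. The median of that list was -0.05, with 5 of 10 genes below 0. Mycl, a Myc paralog, was at 202 and 169 CPM in Neurog3 cells against 25.2 and 18.97 CPM in Spp1 cells, a log2 fold change of 3.05 ± 0.44 (edgeR adjusted p = 1.62e-09), and Mxi1, which competes with Myc for its partner Max, was higher by 2.09 ± 0.47 (adjusted p = 0.000466).

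Between Neurog3 and Chgb cells ribosomal protein mRNAs fell as a family. Of 80 genes tested, 43 were called lower in Chgb cells and 0 higher, where 4.71% of all genes tested were called lower and 3.15% higher. The median log2 fold change was -0.66, against -0.00 over all genes, and 79 of 80 lay below 0. In 78 of 80 the fold was below 0 in both libraries. The called genes fell by 0.59 to 1.34 on the log2 scale. Of the small subunit 22 of 31 were called, with a median of -0.71, and of the large subunit 21 of 49, with a median of -0.61; this difference between the subunits was not tested. Fits with another scaling called 43 to 48 and DESeq2 44, but the fit without the library block called 16 and that without a filter on low counts 25. Without cycling cells 57 were called, in a fit that also held no Cpa1 or Csf1r group. The fit of groups of at least 20 cells, which kept cycling cells and also lacked those groups, called 61. The part of cycling cells in these counts was not tested.
Rpl39, a short protein at the wall of the exit tunnel, had the lowest adjusted p. It was at 1122 and 1482 CPM in Neurog3 cells and 605 and 510 CPM in Chgb cells. Its log2 fold change was -1.22 ± 0.22 (edgeR adjusted p = 1.17e-06), steeper in library 2 (-1.54) than in library 1 (-0.89).
Rpl12, a component of the stalk base where elongation factors dock, was at 1132 and 1180 CPM in Neurog3 and 511 and 518 CPM in Chgb cells. Its log2 fold change was -1.17 ± 0.22 (adjusted p = 6.16e-06, edgeR). Rpl36a, which lies near the tRNA exit site, was at 665 and 817 CPM against 288 and 303 CPM, a log2 fold change of -1.32 ± 0.25 (adjusted p = 9.61e-06, edgeR). These 3 and Rps27, a zinc-binding protein of the small subunit, fell by over 0.5 more than the family's median. Rps27 rested on 107 UMIs, at 92.0 and 93.2 CPM against 27.8 and 44.5 CPM, and its call (adjusted p = 0.0435) was lost with DESeq2 (0.0849) and in 5 of the other alternatives. Rpl23a and Rpl7l1, each at -0.13 and not called, lay over 0.5 above that median, from 73 and 89 UMIs.

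Among other genes called lower, Rps3, at the mRNA entry of the small subunit and also a DNA repair protein, was at 1435 and 1613 CPM in Neurog3 and 625 and 855 CPM in Chgb cells. Rpsa, the small-subunit protein also known as the laminin receptor, was at 1308 and 1462 against 667 and 790 CPM, and Rplp0, the scaffold of the stalk, at 1834 and 2063 against 956 and 1119 CPM. Neither gene's values overlapped between the groups, which says little for genes picked from the called ones. Rps4x, encoded on the X chromosome, was lower by a log2 fold change of -1.06 ± 0.22 (edgeR adjusted p = 5.40e-05). Rps3, Rpsa, Rplp0 and Rps4x were picked here for their roles after their values were seen. Across the 80 genes, the log2 folds of library 1 and library 2 correlated with Pearson's r of 0.68 and Spearman's rho of 0.68; the points are genes of the same sums, which share depth and scaling, and they are not independent replicates.

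**Figure D3:**
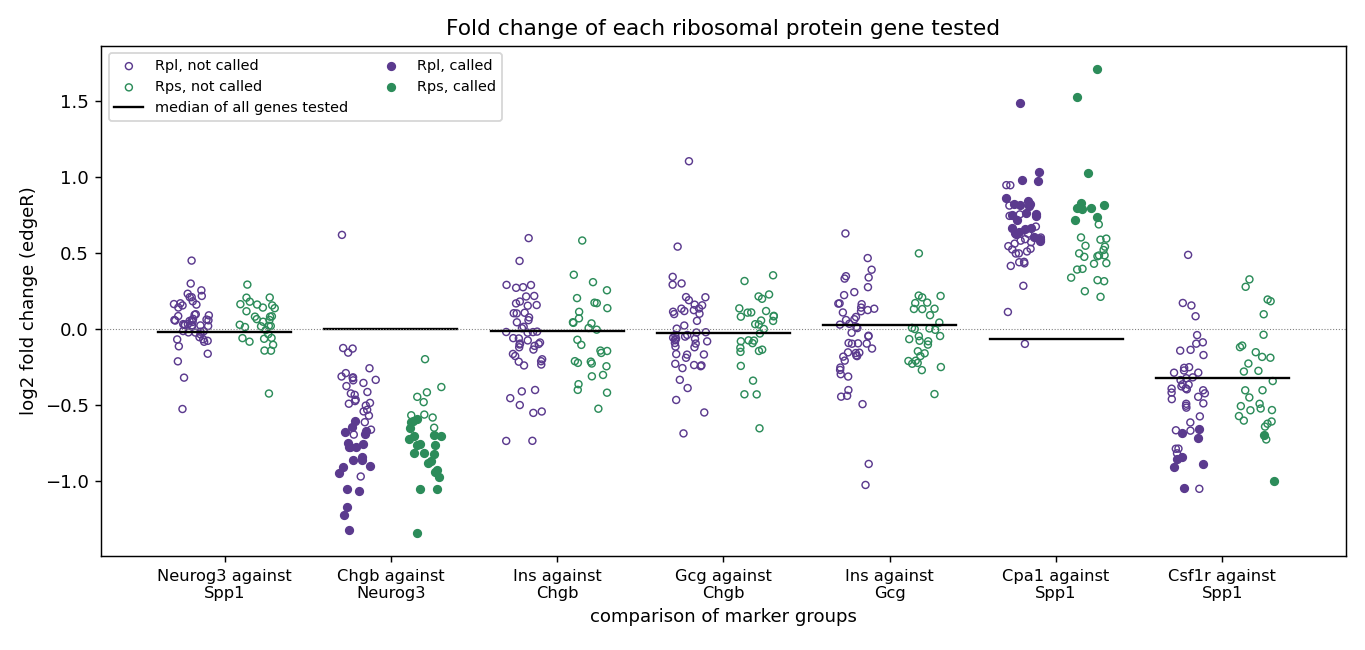
Log2 fold change (edgeR, vertical axis) of each of the 80 ribosomal protein genes tested in each comparison of marker groups (horizontal axis), Rpl genes left and Rps genes right; filled points were called at an adjusted p under 0.05, and the black line is the median of all 9871 genes. In Chgb against Neurog3 cells 79 of 80 points lie below 0, and in Cpa1 against Spp1 cells 79 of 80 lie above it.

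Rpl36al was the only member above 0 between Neurog3 and Chgb cells. It encodes a protein nearly identical to Rpl36a, and it was at 129 and 161 CPM in Neurog3 cells and 208 and 235 CPM in Chgb cells. Its log2 fold change of 0.62 ± 0.31 did not pass (edgeR adjusted p = 0.277, and 0.0834 to 0.620 over the alternatives), but it stood 1.27 above the family's median, and 1.34 and 1.24 above in the 2 libraries. In Ins cells it was at 310 and 363 CPM, 0.60 ± 0.31 above Chgb cells on the log2 scale, again without passing (adjusted p = 0.613, edgeR).
The ratio of Rpl36al to Rpl36a UMIs differed between groups in both libraries. It was 0.222 and 0.197 in Spp1 cells, 0.194 and 0.197 in Neurog3 cells, 0.723 and 0.776 in Chgb cells and 1.21 and 1.80 in Ins cells. Its counting intervals in Chgb cells (0.51 to 1.02 and 0.58 to 1.03) lay above those in Neurog3 cells (0.14 to 0.26 and 0.15 to 0.25). Gcg cells had 0.622 and 1.14, and Cpa1 cells 0.396 and 0.402, where both genes were higher than in Spp1 cells. The paralogs resemble each other and several pseudogenes: all 31-base words of the last 200 bases of the Rpl36a transcript, and 54.7% of those of Rpl36al, also occur in transcripts of other genes in GENCODE M21. How the authors' counting divided such reads is not given in the sources used here, so the ratio describes counts and not a measured switch of transcripts.
Rpl22l1, a paralog of Rpl22, was less steady. The ratio of Rpl22l1 to Rpl22 UMIs was 0.374 and 0.383 in Neurog3 cells, 0.423 and 0.595 in Chgb cells, 0.971 and 0.655 in Ins cells and 0.348 and 0.320 in Cpa1 cells, and its intervals overlapped between Neurog3 and Chgb cells in both libraries. Rps27l, a p53 target and paralog of Rps27, had more UMIs than Rps27 in every group and library, for example 180 against 36 in Cpa1 cells of library 2, except in Neurog3 cells of library 1 (30 against 35; 60 against 47 in library 2). All 31-base words of the last 200 bases of the Rps27 transcript also occur in transcripts of other genes, against 0.588% of those of Rps27l. How such reads were counted is not known, so this difference between Rps27l and Rps27 describes counts only. Of the other paralogs, Rpl39l, Rpl10l and Rpl3l reached at most 0.0313, 0.0333 and 0.0612 of the UMIs of Rpl39, Rpl10 and Rpl3 in any group, and Rpl7l1 at most 0.0897 of those of Rpl7.

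**Figure D4:**
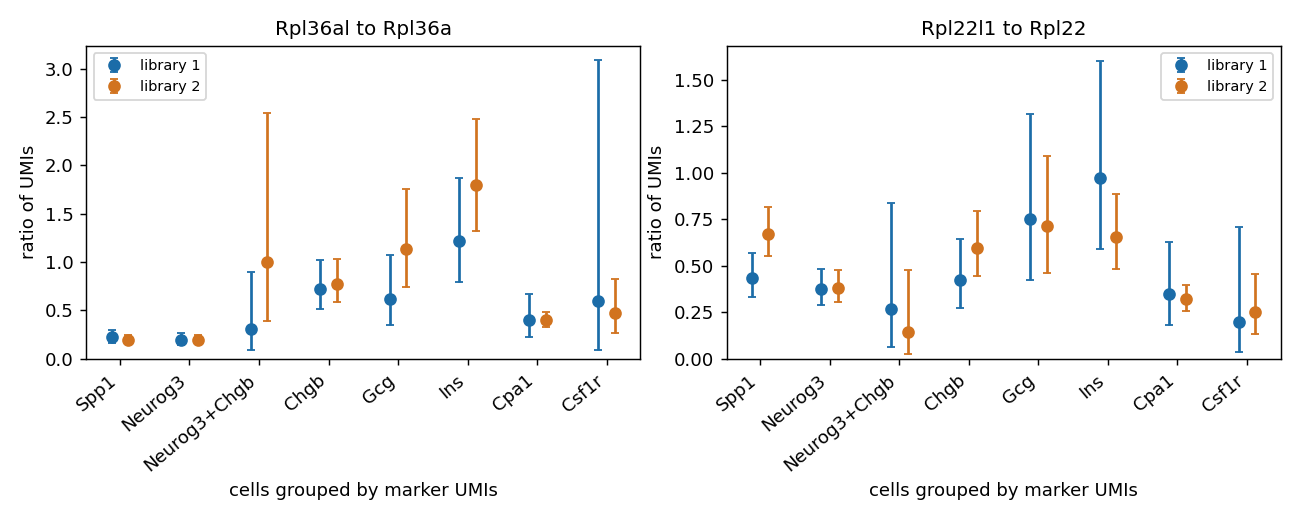
Ratio of UMIs of Rpl36al to Rpl36a (left) and of Rpl22l1 to Rpl22 (right) in each marker group (horizontal axis), 1 point for each library with exact 95% counting intervals. The Rpl36al ratio is near 0.2 in Spp1 and Neurog3 cells, 0.723 and 0.776 in Chgb cells and 1.21 and 1.80 in Ins cells, while the Rpl22l1 intervals of Neurog3 and Chgb cells overlap in each library.

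Between the hormone groups and Chgb cells no ribosomal protein gene was called. In Ins against Chgb cells 0 of 80 ribosomal protein genes were called (1.32% of all genes were called higher and 0.446% lower), with 7 lower at an unadjusted p under 0.05 and a median log2 fold change of -0.06. In Gcg against Chgb cells 0 were called (0.415% higher and 0.284% lower over all genes), with 2 lower at an unadjusted p under 0.05 and a median of -0.04. In Ins against Gcg cells 0 were called (1.37% higher and 0.719% lower over all genes), with 1 lower at an unadjusted p under 0.05 and a median of -0.04. DESeq2 called 0 in each of the 3, and the fit of groups of at least 20 cells called 4, 2 and 1. Rps26, which sits at the mRNA exit of the small subunit, was at 415 and 560 CPM in Gcg and 698 and 832 CPM in Chgb cells. Its log2 fold change of -0.65 ± 0.24 did not pass (edgeR adjusted p = 0.310), but did in the fit without cycling cells (0.0236) and in that of groups of at least 20 cells (0.0281). Rpl28 behaved likewise, at 839 and 649 CPM against 1011 and 1164 CPM, with a log2 fold change of -0.55 ± 0.22 (adjusted p = 0.400, edgeR, and 0.0277 in groups of at least 20 cells). Others that departed from the family's median, none of them called, were Rpl29 (-0.69) and Rpl22l1 (0.54) in Gcg against Chgb, Rpl9 (-0.74), Rps27 (0.58) and Rpl22l1 (0.45) in Ins against Chgb, and Rpl21 (0.46) in Ins against Gcg cells, all as log2 fold changes.

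Cpa1 cells had higher ribosomal protein mRNA levels than Spp1 cells. Of 80 genes tested, 34 were called higher and 0 lower, where 4.11% of all genes tested were called higher and 3.45% lower (406 and 341 genes; 373 and 584 with no scaling factors, which puts the median of all genes at -0.22). The median log2 fold change was 0.60, against -0.07 over all genes, and 79 of 80 lay above 0, 76 of them in both libraries. Of the large subunit 24 of 49 were called, with a median of 0.64, and of the small subunit 10 of 31, with a median of 0.54. RLE scaling called 58 and DESeq2 53, while the fit without the library block called 10 and that without a filter on low counts 8. The Cpa1 group of library 1 has 9 cells, and with library 2 alone for the Cpa1 and Csf1r groups 56 were called, a fit that takes the lone sums to vary like the other groups.
Rps2, at the mRNA entry of the small subunit, stood out. It was at 1248 and 1404 CPM in Cpa1 cells against 513 and 431 CPM in Spp1 cells, a log2 fold change of 1.52 ± 0.25 (edgeR adjusted p = 1.38e-07). Neurog3, Chgb, Gcg and Ins cells had 275 to 554 CPM of it, and both Cpa1 values lay above that range.
Rps27l was at 273 and 560 CPM in Cpa1 and 129 and 137 CPM in Spp1 cells, with a log2 fold change of 1.71 ± 0.34 (adjusted p = 2.96e-05, edgeR); the libraries differed, at 1.08 and 2.03. Rpsa was at 2307 and 3037 against 1189 and 1438 CPM, a log2 fold change of 1.03 ± 0.21 (adjusted p = 3.36e-05, edgeR). Rpl36al was at 359 and 485 against 149 and 156 CPM, a log2 fold change of 1.48 ± 0.32 (adjusted p = 0.000200, edgeR), and rose here by 0.88 more than the family's median. Rpl9, a large-subunit protein, was the only gene below 0, at 103 and 84.0 against 109 and 92.9 CPM, a log2 fold change of -0.10 ± 0.44. Its counts, 6 and 27 UMIs in Cpa1 cells, are few.

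**Figure D5:**
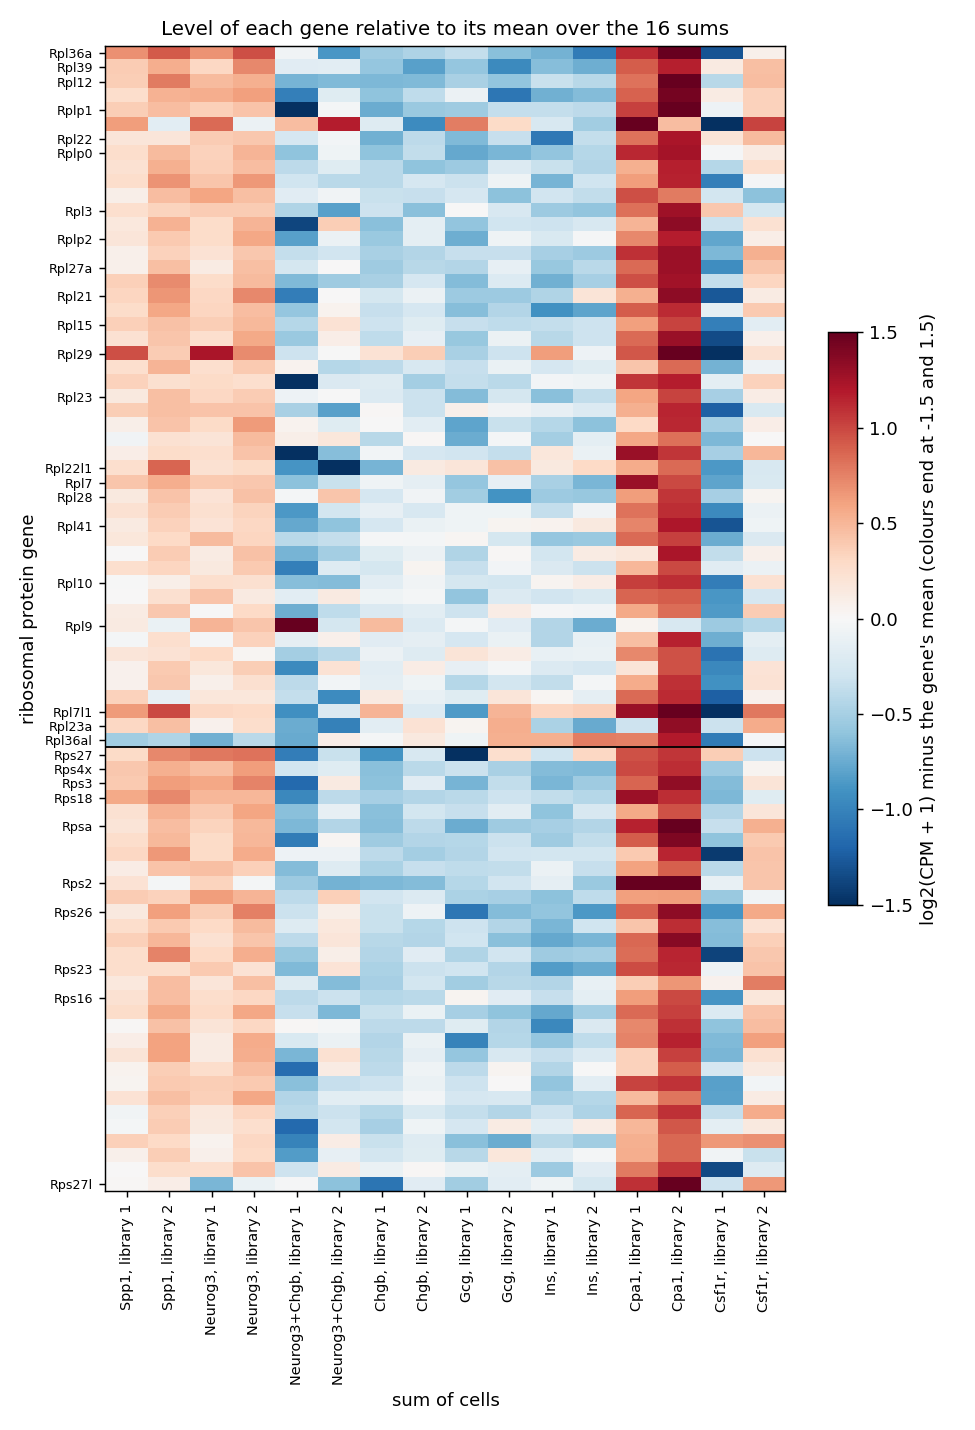
Level of each of the 80 ribosomal protein genes tested (rows, Rpl above the line and Rps below, each ordered by fold change in Chgb against Neurog3 cells, with labels on genes the text describes) in the 16 sums of marker group and library (columns), as log2(CPM + 1) minus the gene's mean over the sums; colours end at -1.5 and 1.5. Most rows are above their mean in Cpa1, Spp1 and Neurog3 cells and below it in Chgb, Gcg and Ins cells, Rpl36al runs from low in Spp1 and Neurog3 to high in Ins cells, and the Csf1r and the Neurog3 and Chgb sums of library 1, with 7 and 8 cells, are uneven.

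In Csf1r cells ribosomal protein genes lay lower than in Spp1 cells, but little more so than other genes. Of 80 genes tested 10 were called lower and 0 higher, where 4.8% of all genes were called lower and 4.83% higher (474 and 477 genes; 414 and 572 with RLE scaling, and 201 and 505 with DESeq2). The median log2 fold change was -0.40, but that of all genes tested was -0.32, and with RLE scaling the medians were -0.22 and -0.17. The libraries differed: in library 1 alone the median of the family was -0.77 against -1.65 over all genes, and in library 2 alone it was -0.29 against -0.17. The Csf1r sum of library 1 holds 7 cells and 18927 UMIs, and its TMM factor was 1.55. In that sum 1 UMI amounts to 34.1 CPM, so genes with 0 UMIs there get strongly negative folds. The medians of library 1 therefore do not show whether the family lay above or below other genes. With library 2 alone for both the Csf1r and the Cpa1 groups 7 were called, of which 5 were among the 10. The looser marker minimum called 0, the fit without the library block 3, DESeq2 3 and the fit without a filter on low counts 21.
Rps18, a protein of the small subunit's head, was at 613 and 863 CPM in Csf1r and 1461 and 1616 CPM in Spp1 cells, a log2 fold change of -0.999 ± 0.245 (edgeR adjusted p = 0.00115). Rpl7 was at 647 and 958 against 1492 and 1629 CPM and Rpl15 at 613 and 1116 against 1604 and 1692 CPM, with log2 fold changes of -0.89 ± 0.24 and -0.86 ± 0.23 (adjusted p = 0.00382 and 0.00437, edgeR). All 3 calls were lost with the looser minimum, that of Rpl7 also with DESeq2 and that of Rpl15 without the block. Rpl36a was called too (-1.05 ± 0.32, edgeR adjusted p = 0.0137), with 5 and 42 UMIs in Csf1r cells, and lost the call in 5 alternatives. Rpl22l1 (-1.05), Rps27l (0.28) and Rps2 (0.19) departed from the family's median without being called.

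The deposited counting limits single members. Rps12 had 0 UMIs in both libraries, while the row Rps12-ps3, named as its pseudogene, had 896 and 1831. Of the 31-base words in the last 200 bases of the Rps12 transcript 92.4% also occur in transcripts of other genes. The Rps12-ps3 row, not tested here, was at 739 and 743 CPM (not scaled by TMM) in Neurog3, 402 and 438 CPM in Chgb and 1354 and 1246 CPM in Cpa1 cells. Of the 86 members with a protein-coding transcript in GENCODE M21, 32 had no such shared word and 38 had over 50% of words shared. Folds were alike on both sides of that split. In Chgb against Neurog3 cells the 35 tested genes with over 50% shared had a median of -0.65 with 17 called, and the other 44 a median of -0.67 with 26 called. Exons of 28 members overlap another gene on the same strand, often a small nucleolar RNA, and those of 19 overlap a gene on the other strand, among them Rpl12, Rps2, Rps18, Rpl15 and Rpl22l1. Whether reads were counted by strand is not given in the sources used here, so the levels of these genes are uncertain.

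Other genes of translation moved in part with the family. The counts here stand beside 4.71% of all genes tested called lower and 3.15% called higher in Chgb against Neurog3 cells. The 1 of 34 and the 1 of 74 called higher below are smaller shares than that. Of the translation elongation factors 3 of 6 tested were called lower in Chgb than in Neurog3 cells, with Eef1g at -1.05 ± 0.23 (edgeR adjusted p = 0.000273) and Eef1b2 at -0.83 ± 0.23, both subunits of the exchange factor that recharges Eef1a1. Of other mRNAs and RNAs with a terminal oligopyrimidine start 4 of 11 were called lower, with Rack1, a scaffold on the small subunit, at -0.81 ± 0.19 and Snhg8, a host of a small nucleolar RNA, at -1.02 ± 0.27. The medians of these lists were -0.60 and -0.71. Of the initiation factors 0 of 28 were called by edgeR or DESeq2 (1 higher and 2 lower at an unadjusted p under 0.05), and of nucleolar assembly genes 1 of 34 was called higher and 0 lower, with medians of -0.19 and -0.10. Of the mitochondrial ribosomal protein genes, which build a separate ribosome, 1 of 74 was called higher (Mrpl10) and 0 lower, with a median of -0.11. Of the Myc family and its partners 2 of 10 were called lower and 0 higher (1 lower with DESeq2), with a median of -0.10. Mxi1 was lower by a log2 fold change of -1.68 ± 0.47 (edgeR adjusted p = 0.00640), and Mycl was lower, at 41.7 and 39.2 CPM and a log2 fold change of -2.17 ± 0.42 (edgeR adjusted p = 1.55e-05). Of the cycling genes 3 of 9 were called lower and 0 higher (1 lower with DESeq2), with a median of -1.36. RNA polymerase I genes (1 of 13 higher, 0 with DESeq2, and 0 lower) and genes of the TOR complex and growth control (1 of 20 higher, 1 lower) had medians of 0.06 and 0.13.
Mitochondrially encoded transcripts and dissociation response genes moved in the same comparison, beside the 4.71% of all genes called lower and the 3.15% called higher. Of the former 2 of 12 were called lower in Chgb cells by edgeR and by DESeq2, mt-Nd1 at -0.52 ± 0.16 and mt-Co3 at -0.48 ± 0.16, with a median of -0.28 and 11 of 12 below 0. Of the latter 1 of 12 was called lower (Jun, -0.82 ± 0.27) and 1 higher (Hsp90aa1, 0.65 ± 0.22). Their part in the fall of ribosomal protein genes was not tested.
In Cpa1 against Spp1 cells 4 of 6 elongation factors, 5 of 28 initiation factors, 4 of 34 nucleolar assembly genes, 3 of 11 other terminal oligopyrimidine RNAs and 2 of 74 mitochondrial ribosomal protein genes were called higher, and 0 of any of these lists lower, beside the 4.11% of all genes called higher; the 2 of 74 are a smaller share than that. Eif5a, which helps ribosomes past hard peptide bonds, was at 1795 and 1802 CPM against 488 and 461 CPM, a log2 fold change of 1.93 ± 0.24 (edgeR adjusted p = 1.06e-13). Of the Myc family and its partners 1 of 10 was called, with a median of -0.30 and 8 of 10 below 0. The called gene, Myc, was at 154 and 199 CPM in Cpa1 and 8.41 and 13.3 CPM in Spp1 cells, a log2 fold change of 3.95 ± 0.61 (adjusted p = 9.79e-09, edgeR). Nop56, of the particle that methylates ribosomal RNA, and Ncl, nucleolin, were higher by 1.71 ± 0.44 and 1.00 ± 0.26. Of the cycling genes 0 of 9 were called by edgeR or DESeq2 (5 higher at an unadjusted p under 0.05), with a median of 0.70. Of 12 tested dissociation response genes 5 were called lower in Cpa1 cells, beside 3.45% of all genes tested. Among them were the immediate-early genes Fosb and Fos, and the part of that difference in the result was not tested.
In Csf1r against Spp1 cells 0 of 6 elongation factors (DESeq2 0; 3 lower at an unadjusted p under 0.05), 1 of 28 initiation factors (Eif5a, higher by 0.79 ± 0.27, edgeR adjusted p = 0.0371) and 2 of 11 other terminal oligopyrimidine RNAs (lower) were called. Eif5a was at 272 and 1094 CPM in Csf1r cells, on both sides of the 488 and 461 CPM in Spp1 cells, and DESeq2 did not call it. Of 12 dissociation response genes 4 were called higher in Csf1r cells, led by Ier3 (2.50 ± 0.51) and Dnajb1 (2.26 ± 0.46), and 1 lower. Their part in the result was not tested. Over all genes tested 4.83% were called higher and 4.8% lower in this comparison, and the 1 of 28 is a smaller share than that.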

How the data were processed

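Gene expression of single cells was measured in 2 libraries (inDrop capture, CEL-Seq amplification, NextSeq500, per the labels' protocols). The authors deposited raw UMI counts per gene and cell, made on GRCm38 per the submitters' processing notes. The sources used here name no aligner or annotation, and do not say how strand or reads with several matches were handled. All cell columns were used, with 0 left out.

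Cells needed at least 1000 UMIs, 500 genes and at most 20% mitochondrial UMIs, and 13 and 11 doublets called by scrublet (scanpy 1.11.5, per library) were removed. UMIs were summed over cells per library and marker group. The 16 sums of 8 groups were fitted in edgeR 4.0.16 (R 4.3.3; quasi-likelihood, TMM, filterByExpr, group plus library, 7 residual degrees of freedom). The library is a block because both groups of a comparison come from the same 2 libraries. The 8 marker genes were not tested. SEs are the absolute log2 fold change over the square root of F, and levels are CPM on TMM-scaled sizes unless said otherwise. DESeq2 1.42.0 was the second tool. Single-library folds use a pseudocount of 1 CPM. The fit was tested on simulated data. A ribosomal protein gene was named if among the 5 with most UMIs, the 3 called with the lowest adjusted p-values of a comparison, called against the members' median, or among the 6 farthest, by at least 0.5 on the log2 scale and with at least 50 UMIs, from the members' median, with the same sign relative to it in both libraries, or if it has a listed paralog; of other lists, up to 2 genes a comparison were named.

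The members, groups, lists and comparisons were chosen with earlier results of these data known, among them a lower level of ribosomal protein genes in endocrine precursors, so that fall is no independent support. Alternatives covered scaling, low-count filter, block, marker minimums, depth, cycling cells, doublets and small groups. Cells in no group (136 and 291) were left out of the comparisons. A gene that this rule names is not reported here.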

Additional observations from a re-analysis of the deposited data

Results flagged for a closer look

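The 15 rows of the tables whose symbols mark ribosomal protein pseudogenes were in no comparison and held 1291 UMIs in library 1 and 2228 in library 2, a signal outside the measurements used in the report. Rps12-ps3 held 896 and 1831 of them and Rpl13a-ps1 179 and 192, while the row of Rps12 itself held 0 in both. In CPM without TMM scaling, all 15 rows together were at 1046 and 932 in Neurog3, 624 and 549 in Chgb and 1799 and 1497 in Cpa1 cells. With 2 libraries a group a sample that stands apart from its group cannot be identified.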

How the results depend on the processing

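Of 93 recounts of called ribosomal protein genes over 7 comparisons, 74 stayed within 1.5 times the reported count. Most of these 74 were counts of 0 that stayed at 0, in comparisons with no called gene, so they say little about the comparisons with calls. In Chgb against Neurog3 cells the count was 25 with no filter on low counts and 16 with no replicate block. In Cpa1 against Spp1 it was 58 with RLE scaling, 53 with DESeq2, 56 with library 2 only for the Cpa1 and Csf1r groups (added after the data were seen), 8 with no filter and 10 with no replicate block. In Csf1r against Spp1 it was 21 with no filter, 3 with no replicate block, 3 with DESeq2 and 0 with looser minimums. In Ins against Chgb it was 2 with no scaling factors, 1 with stricter minimums, 3 without cycling cells, 4 in groups of at least 20 cells and 1 with library 2 only for the small groups. In Gcg against Chgb it was 1 without cycling cells and 2 in groups of at least 20 cells, and in Ins against Gcg 1 in those. The pairing by library comes from the design, since each library gave cells to both groups; leaving the block out left 0 in the other 4 comparisons. The cause of these moves was not tested.

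Leaving mitochondrial UMIs and the 20 most abundant other genes out of the total gave mean shares of 8.74% in Spp1, 8.96% in Neurog3, 5.91% in Chgb, 5.86% in Gcg, 5.49% in Ins, 12.8% in Cpa1 and 7.79% in Csf1r cells. Leaving out mitochondrial UMIs alone gave 4.97% in Ins, 11.99% in Cpa1 and 7.16% in Csf1r cells. Cells of 2000 to 5000 UMIs gave 4.64% in Ins and 7.16% in Csf1r cells, and looser minimums 11.1% in Cpa1 cells. The subunit ratio was 1.32 in Neurog3 and 1.31 in Spp1 cells with looser minimums, and 1.31 in Neurog3 without cycling cells.

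Medians over the family kept their sign in the 3 comparisons with called genes. Of 449 values of named genes 7 changed sign, all of genes that were not called. Rpl7l1 in Chgb against Neurog3 was at 0.25 with stricter minimums, 0.28 in cells of 2000 to 5000 UMIs, 0.28 without cycling cells, and between -0.50 and 0.20 in single libraries. Rps2 in Csf1r against Spp1 was at -0.081 with no filter and between -0.33 and 0.45 in single libraries, and Rps27l there between -0.33 and 0.55. The windows on depth, cycling and 20 cells removed the Cpa1 group, and the last 2 the Csf1r group, so those gave no value there; leaving out a library leaves no residual degrees of freedom and gave values only. A gene that was not called may still have changed, since a group has 2 sums and some hold few UMIs.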
